A study of Mus musculus with 40 samples.

Results

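The 10 genes described here are Atp1b1, Slc12a3, Gfra1, Thbd, Tifa, Stambpl1, Litaf, Uchl1, Arl5c and Elof1, out of 21958 gene rows in the count table. They were chosen by symbol from earlier results of the same libraries, because their RNA was lower in wild-type (WT) FrE than in WT FrD or was higher in mutant FrE than in WT FrE. Both of those comparisons therefore only describe the genes, and the same holds for every other comparison that shares the WT FrD or either FrE group. All 10 are protein coding, and all 10 passed the filter on low counts in each comparison. The working description of the set, as pre-B genes that stay on in mutant FrE, did not hold for the FrE levels of Uchl1 and Elof1. Their mutant and WT ranges overlapped in FrE. Both were lower in FrE than in FrD of the same animal in 5 of 5 mutant and 5 of 5 WT mice. That count also held for Thbd and Tifa, whose FrE groups did not overlap. The fitted log2 step of Uchl1 was smaller in mutants, at -0.73 ± 0.58 (SE), than in WT, at -3.02 ± 0.40 (SE). Over all libraries the FrE ranges of Slc12a3, Gfra1, Litaf and Arl5c overlapped too.

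RNA came from bone marrow B-lineage cells of 10 chimeric mice, made by giving donor marrow to lethally irradiated CD45.1 hosts and waiting 8 weeks. In 5 mice (numbers 4, 5, 8, 9 and 10) the marrow was homozygous for P198A, a missense change made with CRISPR/Cas9 in Slc39a7, which encodes the zinc transporter ZIP7 of the endoplasmic reticulum and Golgi, and in 5 mice (numbers 1, 2, 3, 6 and 7) it was WT. From each mouse 100 donor cells (CD45.2+ CD45.1-) of each of 4 Hardy fractions made 1 library: FrB (pro-B, B220+ CD43+ CD24+ BP1-), FrC (for which the sources used here give no gate), FrD (late pre-B, B220+ CD43- IgM- IgD-) and FrE (immature B, B220+ CD43- IgM+ IgD-). Hosts differ from donors in CD45 allele, irradiated hosts keep some cells of their own, and the sample titles shorten the mutant to KO although the allele is a knock-in. Lists of 5 values below follow the mouse numbers in the order just given, and levels are in CPM, that is, counts divided by the library's gene total and scaled to the usual CPM base.

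Pre-B cells carry a pre-B cell receptor and recombine their immunoglobulin light chain genes with the RAG1 and RAG2 recombinase, and a productive light chain lets the cell display IgM and become an immature B cell. At that point RAG, IL-7 receptor and other pre-B genes are turned down in most cells, while MHC class II, CD20 and other genes of mature B cells come on. ZIP7 releases zinc from the secretory pathway into the cytosol, and the stage at which the mutant and WT differ is what the sorted fractions address.

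The genes lie on different chromosomes except for a pair on chromosome 19 (GRCm38, GENCODE M21, gene body coordinates): Atp1b1 at chr1:164437109-164458355, Slc12a3 at chr8:94329201-94366214, Gfra1 at chr19:58235604-58455909, Thbd at chr2:148404466-148408188, Tifa at chr3:127789805-127832164, Stambpl1 at chr19:34192229-34240333, Litaf at chr16:10959275-11066157, Uchl1 at chr5:66676091-66687234, Arl5c at chr11:97989578-97996181 and Elof1 at chr9:22112989-22117172. Exons of Atp1b1 share 575 of 3081 bases with the opposite-strand gene Nme7, and exons of Litaf share 95 of 5156 bases with Snn. The annotation also places opposite-strand genes, not analysed here, over 416 of 5476 exonic bases of Gfra1 (Gm16277), 295 of 1632 of Uchl1 (Uchl1os) and 105 of 3199 of Tifa (Gm43654), and the microRNA gene Mir7084 over 70 of 1702 of Elof1. No source used here gives the strand setting of the counting, so reads in those stretches cannot be told apart.

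Promoters were looked up for the set as chosen, and the rule itself favours genes that share a pattern of FrD and FrE levels with one another. RefSeq (build GRCm38.p6) gave the 250 bases before the transcription start for 8 of the 10. The RefSeq start lay 73036 bases from the GENCODE gene start for Litaf and 511 bases from it for Gfra1. The promoters of Stambpl1, one of the genes with the closest likeness to the others, of Atp1b1, which had the largest FrE difference with no overlap between groups in all libraries, and of Elof1, whose groups overlapped in FrE, are shown 5′ to 3′ on the gene's strand, with motif matches on either strand in capitals.
Stambpl1, chr19:34191979-34192228, plus strand: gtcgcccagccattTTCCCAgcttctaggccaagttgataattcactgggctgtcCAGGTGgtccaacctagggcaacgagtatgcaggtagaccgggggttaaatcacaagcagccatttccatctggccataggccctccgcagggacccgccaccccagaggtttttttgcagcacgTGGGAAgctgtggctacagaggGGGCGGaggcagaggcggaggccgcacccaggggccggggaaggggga
Atp1b1, chr1:164458356-164458605, minus strand: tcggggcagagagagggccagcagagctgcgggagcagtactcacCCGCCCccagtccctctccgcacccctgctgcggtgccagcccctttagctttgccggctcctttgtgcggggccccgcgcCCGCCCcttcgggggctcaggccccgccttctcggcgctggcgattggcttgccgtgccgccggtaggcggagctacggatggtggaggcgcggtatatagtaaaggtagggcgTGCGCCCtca
Elof1, chr9:22117196-22117445, minus strand: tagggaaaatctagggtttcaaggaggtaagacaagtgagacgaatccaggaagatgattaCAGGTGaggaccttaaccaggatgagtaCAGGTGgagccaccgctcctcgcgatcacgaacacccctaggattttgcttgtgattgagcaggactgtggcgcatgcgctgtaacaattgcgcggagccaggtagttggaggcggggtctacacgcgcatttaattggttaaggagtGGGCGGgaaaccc
Stambpl1 held CAGGTG, the E-box bound by E2A, a pair of TGGGAA, the Ikaros core, and the GC box GGGCGG, with no overlap between matches. Atp1b1 held GC boxes and TGCGCNC, a form of the metal response element bound by the zinc sensor MTF1. Elof1 held CAGGTG at 2 places and a GC box. Over 27025 RefSeq promoters of this length CAGGTG occurred in 17.1%, TGGGAA in 21.5%, GGGCGG in 32.9% and TGCGCNC in 12.6%, and among the 8 genes in 2, 1, 5 and 2. The other metal response form TGCACNC, the FOXO motif TGTTTAC, the C/EBP-ATF composite TGATGCAA and the EBF1 and NF-kB motifs occurred in none of the 8. A match is a run of letters and was not tested for binding.

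The gene total was lowest, at 42111 counts, in the mutant mouse 9 FrE library and highest at 43372070, with a median of 16474388.5 over 40 libraries. In 10 libraries, over 15% of detected genes had only 1 to 9 counts; these low-complexity libraries were, among mutants, mice 4, 8, 9 and 10 in FrB, mice 5, 9 and 10 in FrC and mouse 9 in FrE, and, among WT, mouse 3 in FrD and mouse 7 in FrE. They bear on most values below, so values are also given without them. In FrE of mutant mouse 9 a single count equals 23.7 CPM, and it was the only library in which one of the 10 genes had no count (Gfra1, where 0 counts allow up to 71.2 CPM at a floor of 3 counts, counting error only). All 8 B-lineage markers examined were detected in each of the 8 groups. In FrB their sum was 3431 to 7705 CPM in mutants and 10348 to 11883 CPM in WT, without overlap. Each library pools cells, so fewer cells of a type and less RNA per cell cannot be told apart.

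Averaged over the 10 genes as log2(CPM + 0.5), the mutant level was 5.82 ± 0.86 in FrB, 6.04 ± 1.18 in FrC, 8.02 ± 0.19 in FrD and 7.53 ± 0.62 in FrE (SD, n = 5 each). In WT the averages were 7.10 ± 0.18 in FrB, 7.33 ± 0.13 in FrC, 8.51 ± 0.93 in FrD and 5.98 ± 0.51 in FrE (SD, n = 5 each). Without the low-complexity libraries FrD stood at 8.02 ± 0.19 in mutants (n = 5) and 8.92 ± 0.11 in WT (n = 4), and FrE at 7.80 ± 0.21 in mutants (n = 4) and 6.19 ± 0.25 in WT (n = 4). The mutant average was thus lower than WT in FrD and higher than WT in FrE. These averages describe the genes as chosen and carry no test.

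**Figure D1:**
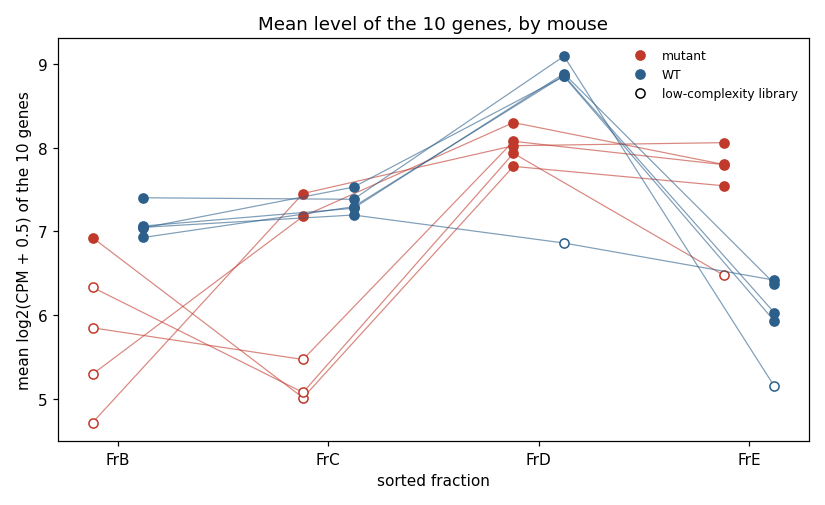
Mean log2(CPM + 0.5) of the 10 genes (vertical axis) in each sorted fraction (horizontal axis), with 1 point per library, a line per mouse, and open points for low-complexity libraries. WT lines other than that of mouse 3 peak in FrD, and WT stands between 5.15 and 6.42 in FrE, while mutant FrE libraries other than mouse 9 stand between 7.54 and 8.06.

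Fitted on all libraries of each comparison, the median log2 difference of the 10 genes was -0.32 in mutant FrE against mutant FrD (range -1.15 to 0.53; all genes -0.06) and -2.50 in WT FrE against WT FrD (range -3.53 to -1.70; all genes 0.01). Set against WT within a fraction, mutants had a median of 1.31 in FrE (range 0.17 to 2.18; all genes -0.10) and of -0.94 in FrD (range -1.69 to -0.02; all genes -0.07). The comparisons share libraries and are given side by side only. In FrE every mutant library lay above every WT library for 4 of the 10 genes, against 1.4% of all genes tested, and without the low-complexity libraries for 7 of 10, against 3.98%. In FrD every mutant library lay below every WT library for 1 of the 10, against 0.468% of genes, and without WT mouse 3 for 6 of 10, against 2.46%. Lower in every WT FrE than in every WT FrD library were 4 of the 10 (1.77% of genes), and 10 of 10 without the low-complexity libraries (5.58%), while for mutant FrE and mutant FrD this held for Elof1 alone in both settings (1.87% and 2.9%). The rule used these groups, so nothing is read from the shares.

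**Figure D2:**
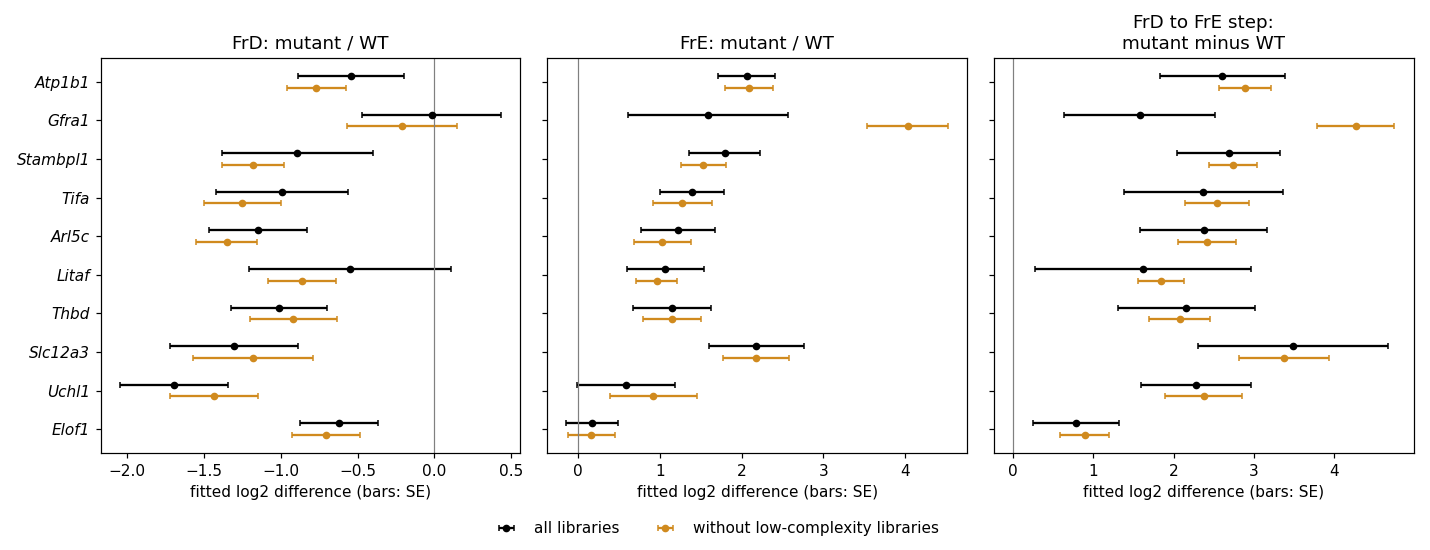
Fitted log2 differences (horizontal axes; bars are SE) for each gene in FrD, in FrE and in the FrD to FrE step, from all libraries (black) and without low-complexity libraries (orange). All 10 genes stand below 0 in FrD and above 0 in FrE, and Gfra1 moves most between the settings, with FrE values of 1.58 and 4.03.

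Of the ion transport genes, Atp1b1 encodes the beta-1 subunit of the Na,K-ATPase, the pump that exports sodium and imports potassium. In FrE it stood at 459, 411, 667, 356 and 849 CPM in the mutants, against 154, 79.1, 144, 150.2 and 64.0 CPM in WT. Every mutant library was above every WT library, and the fitted log2 difference was 2.06 ± 0.35 (SE), a 4.18-fold higher level. FrD values were 384, 351, 313, 413 and 427 CPM in mutants and 477, 594, 107, 726 and 595 CPM in WT. Apart from WT mouse 3, a low-complexity library, all WT FrD values exceeded the mutant ones. Between fractions of the same animal, FrE exceeded FrD in 4 of 5 mutant mice and in 1 of 5 WT mice (mouse 3).

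Slc12a3 encodes the thiazide-sensitive sodium-chloride cotransporter, best known from the distal tubule of the kidney. Its FrE values were 86.0, 98.7, 97.0, 23.7 and 107 CPM in mutants, against 22.9, 19.4, 26.4, 11.5 and 5.58 CPM in WT. The low mutant value is a single count in mouse 9, and the other 4 mutant libraries lay above every WT library, with a fitted log2 difference of 2.18 ± 0.58 (SE) over all 10 libraries. In FrD it stood at 163, 43.7, 47.3, 80.2 and 104 CPM in mutants and 144, 159.6, 187, 170.1 and 271 CPM in WT, ranges that overlapped through mutant mouse 4. WT FrE was lower than WT FrD in 5 of 5 mice, by a fitted log2 difference of -3.53 ± 0.46 (SE) over all libraries and -3.22 ± 0.40 (SE) without the low-complexity ones. Mutant FrE was lower than mutant FrD in 2 of 5.

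At the cell surface, Gfra1 is the lipid-anchored co-receptor for the neurotrophic factor GDNF, which signals through RET. FrE held 79.2, 88.5, 119, 0 and 56.0 CPM in mutants and 3.05, 4.21, 6.35, 6.55 and 74.3 CPM in WT. The extremes that make these groups overlap are both low-complexity libraries, mutant mouse 9 without a count and WT mouse 7 far above the other WT libraries. The fitted log2 difference was 1.58 ± 0.98 (SE) with them and 4.03 ± 0.49 (SE) without them, or 16.4-fold. FrD values were 57.6, 71.2, 77.2, 63.3 and 122 CPM in mutants and 99.1, 126, 20.6, 39.3 and 69.9 CPM in WT, with overlapping ranges and a fitted log2 difference of -0.02 ± 0.45 (SE). Gfra1 had no FrD peak in WT: its WT medians were 61.9, 64.7, 69.9 and 6.35 CPM in FrB, FrC, FrD and FrE, so that WT FrE stood apart as the low group.

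Thbd encodes thrombomodulin, the endothelial receptor with which thrombin activates protein C. In FrE its values were 106, 75.2, 87.5, 47.5 and 87.3 CPM in mutants, against 45.4, 32.6, 44.6, 29.1 and 16.7 CPM in WT. The groups did not overlap, although the lowest mutant value (2 counts, mouse 9) was close to the highest WT one, and the fitted log2 difference was 1.15 ± 0.48 (SE). FrD held 202, 93.9, 133, 90.8 and 116 CPM in mutants and 246, 257, 209.8, 219 and 185 CPM in WT. Only mutant mouse 4 reached the WT range there. Thbd was lower in FrE than in FrD in 5 of 5 mice of each genotype, with fitted log2 steps of -0.64 ± 0.79 (SE) in mutants and -2.80 ± 0.31 (SE) in WT.

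Among signalling genes, Tifa encodes the adaptor that, once the kinase ALPK1 senses a bacterial sugar, joins with TRAF6 to activate NF-kB. It was the most abundant of the 10 per kilobase of exon in WT FrD, with a median of 1197 CPM per kilobase, against 15.3 for Slc12a3 and 12.8 for Gfra1. FrE values were 1704, 878, 957, 902 and 668 CPM in mutants and 602, 425, 289, 326 and 116 CPM in WT. All mutant libraries exceeded all WT libraries, by a fitted log2 difference of 1.39 ± 0.39 (SE), with mutant mouse 4 highest and WT mouse 7 lowest. In FrD the order was turned round, with 2656, 1280.5, 1849, 1413 and 1472 CPM in mutants and 3847, 3076, 440.2, 3830.2 and 4703 CPM in WT, and the WT libraries other than mouse 3 all lay above the mutants. FrE was lower than FrD in 5 of 5 mice of each genotype, with fitted log2 steps of -0.78 ± 0.87 (SE) in mutants and -3.17 ± 0.42 (SE) in WT.

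Stambpl1 encodes AMSH-LP, a deubiquitinase that cuts lysine-63 ubiquitin chains. In FrE it had 374, 230.1, 372, 379.9 and 249 CPM in mutants, against 109.7, 96.8, 101, 94.6 and 14.5 CPM in WT. No mutant library came near a WT one, and the fitted log2 difference was 1.79 ± 0.43 (SE), a 3.46-fold higher level. FrD values were 463, 362, 481, 516 and 363 CPM in mutants and 809.5, 787, 52.3, 1024 and 1059 CPM in WT, so that mouse 3 again stood alone among WT libraries and the other 4 exceeded every mutant. FrE was lower than FrD in 5 of 5 mutants, by a fitted log2 step of -0.48 ± 0.44 (SE), and in 4 of 5 WT mice, by -3.18 ± 0.50 (SE).

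Litaf encodes a zinc-binding membrane protein of late endosomes that binds NEDD4-family ubiquitin ligases. Its FrE values were 331, 316, 487, 166 and 331 CPM in mutants and 195, 153, 201, 159.7 and 20.2 CPM in WT. Mutant mouse 9 (7 counts) lay within the WT range and the others lay above it, for a fitted log2 difference of 1.06 ± 0.47 (SE). FrD held 421, 337, 418, 400.0 and 249 CPM in mutants and 703.3, 618, 6.91, 521 and 629 CPM in WT. Outside WT mouse 3 all WT values exceeded all mutant values. FrE was higher than FrD in 2 of 5 mutant mice and in 1 of 5 WT mice (mouse 3).

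Arl5c belongs to the ARF-like small GTPases, which act in membrane traffic. FrE held 510.4, 341, 526, 451 and 589 CPM in mutants and 273, 95.2, 342, 196 and 34.4 CPM in WT. The groups touched, since WT mouse 3 stood just above mutant mouse 5, and the fitted log2 difference was 1.22 ± 0.46 (SE). In FrD it had 442, 313, 381, 473 and 482 CPM in mutants and 883, 952, 226, 894 and 1218 CPM in WT, a fitted log2 difference of -1.15 ± 0.32 (SE) that was -1.35 ± 0.20 (SE) without WT mouse 3. As with Atp1b1, FrE exceeded FrD in 4 of 5 mutant mice and in 1 of 5 WT mice.

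Uchl1 and Elof1 had the lowest fitted FrE differences over all libraries. Uchl1, a ubiquitin C-terminal hydrolase abundant in neurons, had 32.3, 37.6, 69.3, 23.7 and 83.4 CPM in mutant FrE, against 33.6, 31.0, 32.7, 10.4 and 37.3 CPM in WT FrE. Those ranges overlapped and the fitted log2 difference was 0.58 ± 0.60 (SE). It was in FrD that Uchl1 separated the genotypes, with 69.6, 105, 108, 52.6 and 85.6 CPM in mutants against 189, 146, 292, 237 and 271 CPM in WT. It was the one gene of the 10 with no overlap in FrD over all libraries, at a fitted log2 difference of -1.69 ± 0.35 (SE). Elof1, a small elongation factor that travels with RNA polymerase II, held 248, 223, 415, 237 and 236 CPM in mutant FrE and 217, 293, 256, 175 and 131 CPM in WT FrE. The groups overlapped, with a fitted log2 difference of 0.17 ± 0.32 (SE). In FrD Elof1 had 804, 467, 588, 526 and 577 CPM in mutants and 888, 719, 441, 931 and 1069.5 CPM in WT, also with overlap. From FrD to FrE the fitted log2 steps of Uchl1 were -0.73 ± 0.58 (SE) in mutants and -3.02 ± 0.40 (SE) in WT. Those of Elof1 were -1.15 ± 0.50 (SE) and -1.95 ± 0.23 (SE). The step thus differed between genotypes by 2.28 ± 0.68 (SE) for Uchl1 and 0.78 ± 0.53 (SE) for Elof1, as a description.

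**Figure D3:**
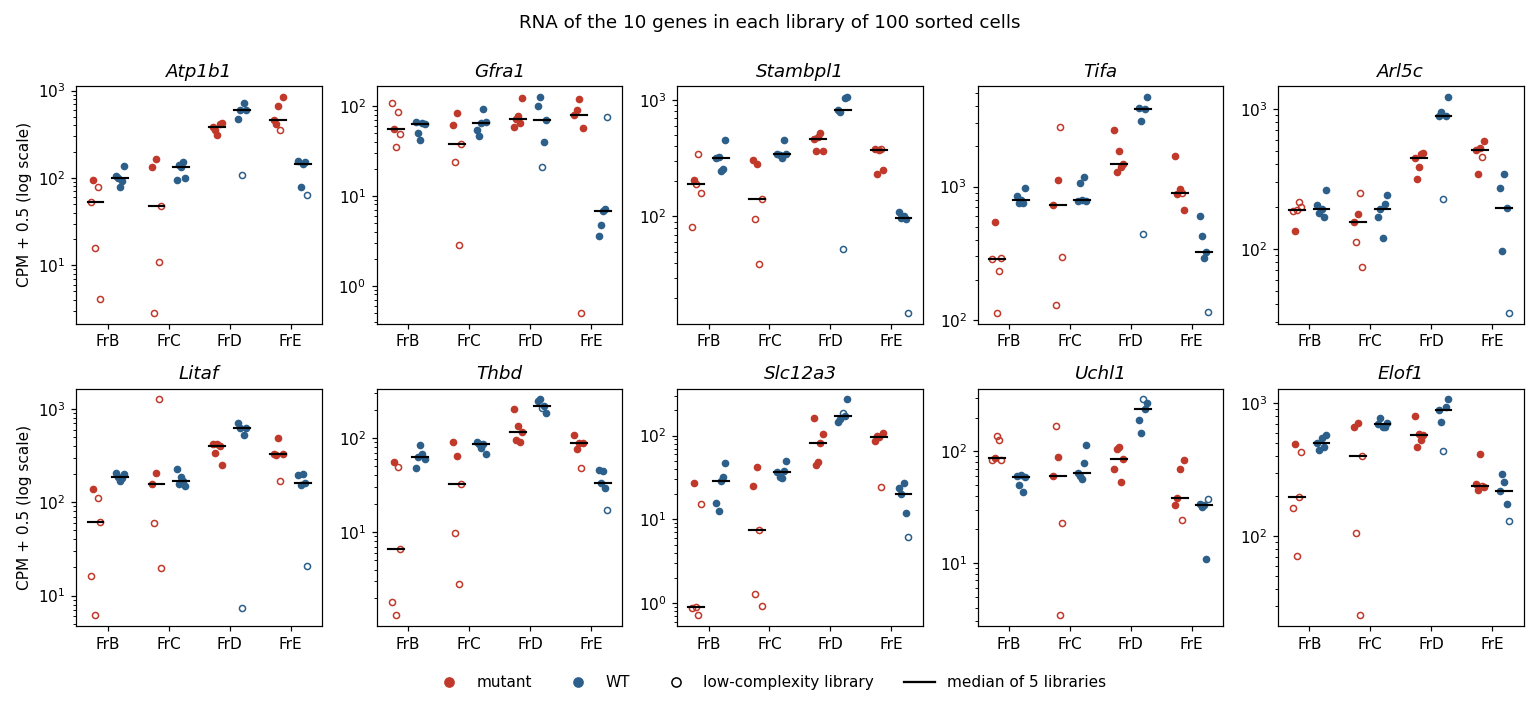
CPM + 0.5 on a log axis for each of the 10 genes in each library, by fraction (horizontal axis), with mutants left of WT, open points for low-complexity libraries and a bar at the median of 5 libraries. In FrE every mutant library stands above every WT library for 4 of the 10 genes (Atp1b1, Stambpl1, Tifa and Thbd), and the groups overlap for the others. In FrB and FrC the wide mutant ranges are largely those of open points.

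Ordered by group median, WT FrD was highest for 9 of the 10 genes and mutant FrE for Gfra1. Behind WT FrD came mutant FrE and then mutant FrD for Atp1b1, Arl5c and Slc12a3, and mutant FrD and then mutant FrE for Stambpl1, Tifa, Litaf and Thbd, but mutant FrD and mutant FrE overlapped for all 7. WT FrE was the lowest group for Stambpl1, Gfra1 and Uchl1, with medians of 96.8, 6.35 and 32.7 CPM, the last overlapping mutant FrE. Per kilobase of exon, the highest medians in mutant FrE were those of Tifa and Arl5c (282 and 246 CPM per kilobase), and in WT FrE those of Elof1 and Tifa (128 and 102).

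FrB and FrC were not used to choose the genes and could be tested. Some marker sums of the FrB libraries also differed between genotypes, as given below. The part of that in the FrB values was not tested. For mutant against WT FrB, edgeR's quasi-likelihood test with Benjamini-Hochberg adjustment over 10562 genes called 1 of the 10, against 7.37% of all genes: Tifa, at 288, 543, 113, 235 and 289.6 CPM in mutants and 856, 754, 791, 750.3 and 979.8 CPM in WT. Every mutant value was below every WT value, as for Litaf (2 of 10, against 8.27% of genes), and the fold change was -1.29 ± 0.28 on the log2 scale (SE, adjusted p = 0.0138). It did not pass under spike-in scaling (-0.59, SE 0.70, adjusted p = 0.761) or in a joint fit of all 40 libraries (-1.27, SE 0.70, adjusted p = 0.272). Leaving out the 4 low-complexity mutant libraries left mutant mouse 5 alone against 5 WT mice, at -0.66 (SE 0.25, adjusted p = 0.259; 1.2% of genes called), a fit in which that lone library is assumed to vary like the WT ones. Uchl1 alone was higher in every mutant FrB library than in every WT one (1 of 10, against 4.41% of genes), at 84.0, 87.3, 137, 126 and 82.5 CPM against 59.8, 49.7, 60.5, 43.0 and 58.3 CPM in WT. It missed the threshold in edgeR (1.34 ± 0.48 SE on the log2 scale, adjusted p = 0.101), and DESeq2 called it (1.55, adjusted p = 0.0203). For Slc12a3, Thbd and Litaf the mutant FrB levels were 0.212 to 27.0, 0.803 to 54.9 and 5.62 to 137 CPM, against 11.96 to 46.2, 47.3 to 83.2 and 168 to 207 CPM in WT, and none of these passed (adjusted p 0.193 to 0.430).

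For mutant against WT FrC no gene of the 10 was called, nor any of 10299 genes (0%). At an unadjusted p under 0.05 edgeR had 1168 genes, 1 of them (Litaf) among the 10, and DESeq2 called 573 genes, again with Litaf. That value rests on mutant mouse 9, where Litaf was at 1262 CPM and Tifa at 2784 CPM in a low-complexity library, against 149 to 228 and 775 to 1178 CPM in WT FrC. Stambpl1 was the one gene of the 10 with every mutant FrC library below every WT one, against 2.32% of genes. In mutant mice 4 and 8, the FrC libraries that were not of low complexity, the log2 differences of the 10 genes from WT lay between -0.28 and 0.27. A difference in FrC was thus not detectable with 2 such libraries, which does not show that the groups are alike.

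The steps before FrD gave few calls. In WT FrC against WT FrB none of the 10 was called (0.166% of 11439 genes; adjusted p = 0.99955 for each, edgeR's quasi-likelihood test), and their log2 fold changes lay between -0.20 and 0.38. In mutant FrC against mutant FrB none of the 10 and none of 11197 genes was called (0%; 1797 genes at an unadjusted p under 0.05; 384 by DESeq2), and leaving out mutant mouse 5 brought in Tifa (adjusted p = 0.0325). In mutant FrD against mutant FrC none of the 10 was called either, against 2.97% of genes, with log2 fold changes between -2.66 for Litaf and 2.04 for Atp1b1. Without the 8 low-complexity mutant libraries, 3 of them FrC, Atp1b1 (1.38 ± 0.31 SE on the log2 scale, adjusted p = 0.0402) and Arl5c (1.38 ± 0.30 SE, adjusted p = 0.0334) rose in mutant FrD over mutant FrC, 2 of the 10 against 0.918% of 13076 genes. With all libraries Arl5c was at -0.39 ± 0.64 (SE), and under spike-in scaling it was called lower (-2.31, adjusted p = 0.0457), close to the shift of all genes given below. For WT FrD against WT FrC, which shares libraries with the rule, all 10 genes were above 0 with a median of 1.81 (all genes 0.09).

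Scaling to the ERCC spike-in counts in place of TMM shifted all genes. Spike-in counts were uneven: 101 in FrE of mutant mouse 9, 125 and 896 in FrC of mutant mice 9 and 5, and 187335 in FrD of WT mouse 7. In mutant FrC the log2 ratio of gene counts to spike-in counts ran from 8.63 to 13.75, so this scaling is uncertain there. Under it the median of all genes stood at -2.39 for WT FrD against WT FrC and at -2.29 for mutant FrD against mutant FrC. Relative to that shift the 10 genes kept their place in WT: 10 of 10 lay above the all-gene median, and their own median of -0.71 exceeded it by 1.68. In mutant FrD against mutant FrC 6 of 10 lay above it. In FrE against WT, the mutants' median under spike-in scaling was 1.16 with all genes at -0.24, and in FrD it was -0.24 with all genes at 0.39, so that in FrD 10 of 10 still lay below the all-gene median.

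Index codes in the sample titles fall into a set for odd and a set for even mouse numbers, and each set holds both genotypes. In FrE the median log2(CPM + 0.5) difference of the 10 genes was 1.70 in the even set (3 mutants, 2 WT; 10 of 10 above 0) and 1.35 in the odd set (2 mutants, 3 WT; 8 of 10 above 0). In FrD it was -0.82 in the even set and -0.58 in the odd set, with 1 of 10 and 4 of 10 above 0. Within FrB and FrC the sets gave -1.62 and -0.33, and -0.63 and -2.69, even set first. These values include the low-complexity libraries, which were spread unevenly over the sets. The even set held those of mutant mice 4, 8 and 10 in FrB and 10 in FrC. The odd set held those of mutant mouse 9 in FrB, FrC and FrE, mutant mouse 5 in FrC, WT mouse 3 in FrD and WT mouse 7 in FrE. Index set and library quality therefore cannot be told apart here. 

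Other late pre-B genes were followed as a list of 27. This list and those below were chosen with earlier results of these data known. The FrD and FrE comparisons share libraries with the rule, so they give no separate support for the pattern of the 10 genes. In WT FrE against WT FrD 10 of 27 fell and 1 rose (edgeR's quasi-likelihood test, Benjamini-Hochberg), against 2.43% of genes that fell and 2.88% that rose. The list's median log2 fold change was -0.68, against 0.01 for all genes. Il7r, the IL-7 receptor alpha chain, fell by 4.29 on the log2 scale (SE 0.53, adjusted p = 5.11e-05), and Rag2 and Rag1, the recombinase genes, fell by 5.68 (SE 0.80, adjusted p = 0.000151) and 5.71 (SE 0.83, adjusted p = 0.000195). Cxcr4, the receptor that holds B-cell precursors in marrow, fell by 2.16 (SE 0.37, adjusted p = 0.00109), and Ikzf3, which encodes Aiolos, was the one that rose. In mutant FrE against mutant FrD none of the 27 was called (0% of genes; edgeR had 616 genes at an unadjusted p under 0.05 and DESeq2 called 98), with a median of 0.11. Without the low-complexity libraries 3 of the 27, Btg1, Cd79a and Cd72, were called higher there (0.734% of genes called), and none lower. The step itself differed between genotypes for 3 of the 27, against 0.153% of 12397 genes. These were Rag1 (log2 difference 4.79, SE 0.999, adjusted p = 0.0353), Il7r (3.25 ± 0.72 SE, adjusted p = 0.0405) and Rag2 (5.12 ± 1.17 SE, adjusted p = 0.0495), each with the higher FrE level in mutants. Without the low-complexity libraries 11 of the 27 fell in WT FrE (4.6% of genes), and the step differed between genotypes for 7 (1.39% of genes), the same 3 with Il2ra, Btg1, Sox4 and Vpreb3. Rag2 averaged 126 ± 51.8 CPM in mutant FrE, against 5.11 ± 4.22 CPM in WT FrE (SD, n = 5 each). In mutant against WT FrE none of 26 tested passed (0% of 9662 genes; 512 at an unadjusted p under 0.05; 54 by DESeq2), while Il7r, Bach2 and Rag2 passed without the low-complexity libraries (adjusted p = 0.00333, 0.0119 and 0.0418; 0.284% of genes).

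Genes of immature and mature B cells, a list of 24 with 22 in the table, went the other way. In WT FrE against WT FrD 9 rose (2.88% of all genes) and 1 fell (2.43%), with a median log2 fold change of 1.56. Ms4a1 (CD20) rose by 4.13 ± 0.43 (SE, adjusted p = 8.8e-06, edgeR's quasi-likelihood test), Fcmr (the IgM Fc receptor) by 2.89 ± 0.36 and Ltb (lymphotoxin beta) by 2.81 ± 0.37, and Cd38 was the one that fell. In mutant FrE against mutant FrD none passed in all libraries (0% of all genes), with 21 of 22 above 0 and a median of 1.57, and 7 rose without the low-complexity libraries (0.734% of genes called). Against WT, mutant FrE was lower for 20 of 22 genes with a median of -1.10, none of which passed in all libraries (0% of all genes). Without the low-complexity libraries 5 of them, Cd74, Ms4a1, H2-Ab1, H2-Eb1 and Tnfrsf13c, were called lower in mutants (0.284% of all genes called in either direction). Ms4a1 averaged 2240.4 ± 628 CPM in mutant FrE, against 5670.2 ± 2227 CPM in WT FrE (SD, n = 5 each).

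The 5 late pre-B markers summed to 3847 to 6304 CPM in mutant FrE, against 2156 to 3538 CPM in WT FrE, without overlap, and the 8 immature B markers to 9325 to 15388 CPM in mutant FrE against 12588 to 36586 CPM in WT FrE, with overlap. Most of each late pre-B sum in FrE was Vpreb3. The other markers, Rag1, Rag2, Il2ra and Irf4, averaged 76.4, 126, 100 and 376 CPM in mutant FrE and 5.32, 5.11, 22.7 and 124 CPM in WT FrE. The late pre-B sums of WT FrB (1731 to 2425 CPM) and WT FrC (1946 to 2760 CPM) were near those of WT FrE. In FrD the late pre-B sums were 2936 to 6439.95 CPM in mutants and 4447 to 7649.8 CPM in WT. The 12 granulocyte and monocyte markers reached 11857 to 23164 CPM in mutant FrD, against 46.5 to 74802 CPM in WT FrD, and 32.5 to 71274 CPM in mutant FrE, against 40.6 to 6177 CPM in WT FrE. The 8 erythroid markers reached 700.4 to 6875 CPM in mutant FrD and 27.9 to 31917 CPM in WT FrD, and 61.3 to 7515 CPM in mutant FrE and 21.1 to 20679 CPM in WT FrE. No defining marker of these 4 lists was at 0 in any group; of the T-cell list, Cd3e was at 0 in WT FrD and WT FrE, where the 7 markers summed to at most 56.0 and 184 CPM. In FrE the 6 plasma cell markers summed to 1667 to 2565 CPM in mutants and 1098 to 23428 CPM in WT, the 6 plasmacytoid dendritic cell markers to 261 to 1836 CPM in mutants and 13.3 to 474 CPM in WT, and the 7 pro-B markers to 343 to 1259 CPM in mutants and 13.4 to 1239 CPM in WT. In FrB the immature B sums were 719 to 2177 CPM in mutants and 7243 to 11510 CPM in WT, without overlap. The FrB plasma cell sums, 860 to 12476 CPM and 17459 to 52648 CPM, did not overlap either. Granulocyte and monocyte sums in FrB, 2548 to 57969 CPM in mutants and 125 to 11514 CPM in WT, overlapped. So did the FrB pro-B sums, 5530 to 7348 CPM and 4395 to 7227 CPM. The part of these cells in the levels of the 10 genes was not tested.

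**Figure D4:**
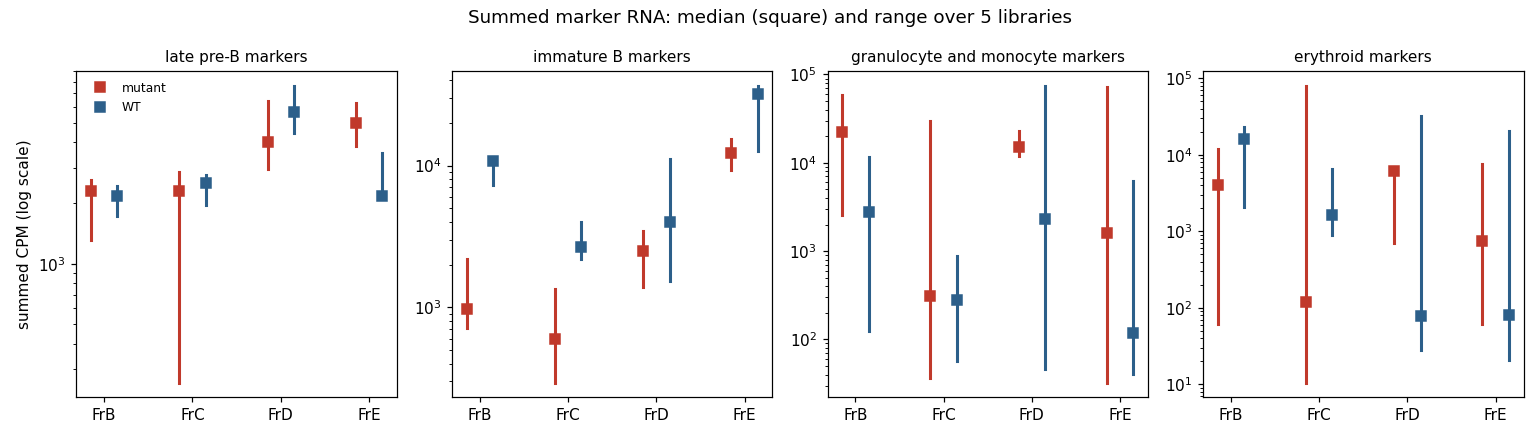
Summed CPM of 4 marker lists on log axes, by fraction (horizontal axis), with mutants left of WT; squares are medians and lines the range over 5 libraries. Late pre-B sums of mutant and WT FrE, mostly Vpreb3, do not overlap, with the mutants higher, and granulocyte and monocyte sums range widely in most groups.

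The relatives and partners of the 10 genes, 66 genes in 10 lists, gave few calls. In WT FrE against WT FrD 54 were tested, 5 fell (2.43% of all genes) and none rose (2.88%). Atp1b3, the beta-3 subunit of the same pump, fell by 0.90 (SE 0.25, adjusted p = 0.0365, edgeR's quasi-likelihood test), and its FrE level was 345 ± 84.5 CPM in mutants and 365 ± 99.9 CPM in WT (SD, n = 5 each). Traf6, the ubiquitin ligase that TIFA engages, fell by 1.97 (SE 0.58, adjusted p = 0.0477), and its FrE level was 88.1 ± 41.4 CPM in mutants and 26.0 ± 15.5 CPM in WT. The other genes that fell were Cops5, a subunit of the COP9 signalosome, Slc12a7, a potassium-chloride cotransporter, and Ret, the receptor partner of Gfra1, which was at 0 to 0.144 CPM in WT FrE and at 1.30 to 73.6 CPM in WT FrD. In mutant against WT FrE none of 47 tested passed (0% of all genes), and for the step between genotypes none of 56 passed in all libraries (0.153% of all genes). Without the low-complexity libraries Atp1b3, Cops5 and Slc12a7 also fell in WT FrE, Ret and Traf6 did not pass, and Tifab, Arl5a and Ssrp1 passed as lower. Relatives of Arl5c and partners of Litaf had no call with all libraries, with Arl1 at 140.2 ± 41.7 CPM in mutant FrE and 126 ± 30.5 CPM in WT FrE, and Tsg101 at 109 ± 39.8 CPM in mutant FrE and 128 ± 71.2 CPM in WT FrE. Of the 5 thrombomodulin partners at most 1 was tested with all libraries, and Procr was at 0 CPM in mutant FrE and 0.741 ± 1.66 CPM in WT FrE.

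Over the 30 libraries that were not of low complexity, each of the 10 genes was set against the mean of the other 9 as Pearson correlation of standardised log2 values, a description across libraries that share fractions and mice. The FrD and FrE libraries that chose the genes are among them, so likeness within the set follows in part from the rule. Thbd and Tifa (r = 0.93 each) and Stambpl1 (0.91) were closest, and Atp1b1 (0.72), Gfra1 (0.62) and Elof1 (0.57) were farthest. Among 12360 genes outside the set, the profiles most like the mean of the 10 were those of Sec63 (r = 0.93), Cecr2 (0.91), Cdc42ep3 (0.90), Tcf12 (0.90) and Tapt1 (0.87). Sec63 encodes a subunit of the protein translocation machinery of the endoplasmic reticulum, and Tcf12 encodes HEB, an E protein of lymphocyte precursors. Sec63 stood at 275, 256, 219, 189.97 and 308 CPM in mutant FrE, against 70.3, 55.3, 119, 46.8 and 4.01 CPM in WT FrE. Every mutant library lay above every WT library for this gene, which was picked for its likeness to the set, so no test is given.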

How the data were processed

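The deposited table holds raw whole-number counts per Ensembl gene for 40 libraries (Smart-seq2, 100 cells, Nextera XT, per the labels' protocols). The authors' tools, per the submitters' processing notes, were HISAT2 2.1.0, featureCounts 1.4.6 and DESeq2, with build mm10; no source used here gives the annotation release or strand setting. Of 22050 rows, 92 are ERCC spike-ins, and 21728 of 21958 genes matched GENCODE M21; the other 230 carry 0.0325% of counts. CPM is the count divided by the library's gene total, with 0.5 added on log scales. Tests used edgeR 4.0.16 (quasi-likelihood, robust, TMM, filterByExpr with a minimum count of 10 and total of 15) in R 4.3.3, on 10 libraries per fraction for genotype, on 20 of a genotype for steps and on 40 for the difference in steps, with Benjamini-Hochberg adjustment over all genes at 0.05. SE is the log2 fold change divided by the square root of F.

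The members, lists and tests were chosen with earlier results of these data known. All 10 members were named whatever their values, up to 4 called genes per list by lowest p or else its most abundant gene, and the 5 genes most like the set. Alternatives were DESeq2 1.42.0, its size factors, ERCC scaling, no filter, the index set, a joint fit, a block for mouse, and leaving out each mouse or the low-complexity libraries. A mouse number marks 1 animal in all its fractions; deviations of the same mouse had median correlations of -0.017 to 0.062 over 6 steps. On simulated counts for mutant against WT FrB the test recovered 94% of 4-fold and 22% of 2-fold changes. The simulation gave all libraries the same spread and changed only well-counted genes. Most real mutant FrB libraries were of low complexity, so these shares do not give the power of the real test. Libraries came from separate mice, and no pair held identical values. Some genes of the lists are not reported here.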

Additional observations from a re-analysis of the deposited data

Results flagged for a closer look

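Among 80 sets of 5 libraries (10 genes in 8 groups), 11 had a highest or lowest library whose gap to the rest passed Dixon's 95% limit of 0.71 of the range, where chance gives about 1 in 20, and 7 of the 11 were low-complexity libraries. Gfra1 was at 74.3 CPM in FrE of WT mouse 7, against 3.05 to 6.55 CPM in the other WT mice. Stambpl1 was at 14.5 CPM and Litaf at 20.2 CPM in the same library, against 94.6 to 109.7 CPM and 153 to 201 CPM. In FrD of WT mouse 3 Stambpl1 was at 52.3 CPM (others 787 to 1059 CPM) and Litaf at 6.91 CPM (others 521 to 703.3 CPM). Litaf reached 1262 CPM in FrC of mutant mouse 9 (others 19.2 to 206 CPM), and Slc12a3 was at 23.7 CPM in FrE of that mouse (others 86.0 to 106.7 CPM).

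The other 4 were in libraries not of low complexity. Tifa was at 1704 CPM in FrE of mutant mouse 4 (others 668 to 957 CPM), and Elof1 at 415 CPM in FrE of mutant mouse 8 (others 223 to 248 CPM). Uchl1 was at 10.4 CPM in FrE of WT mouse 6 (others 31.0 to 37.3 CPM), and Stambpl1 at 452 CPM in FrC of WT mouse 6 (others 319 to 343 CPM).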

How the results depend on the processing

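For single genes, 1459 of 1500 values under an alternative kept their side of the threshold or, where untested, moved by less than the replicate spread, and 77 of the 1500 changed sign. In mutant against WT FrB the number of the 10 genes called was 2 by DESeq2 and 0 under ERCC scaling, without the low-complexity libraries and in the joint fit, and 1 to 2 when each mouse was left out (without mutant mouse 5, Tifa and Uchl1). In FrC it was 1 by DESeq2 (Litaf) and 2 in the joint fit (Tifa and Litaf), and 0 with each mouse left out. In mutant FrC against mutant FrB it was 0 to 1 with each mouse left out (Tifa, without mutant mouse 5). In mutant FrD against mutant FrC it was 4 under ERCC scaling (Tifa, Uchl1, Arl5c and Litaf, all lower; Uchl1 reversed to -2.90) and 2 without the low-complexity libraries (Atp1b1 and Arl5c, the second reversed to 1.38).

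ERCC scaling moved the median of the 10 genes to -0.24 in mutant against WT FrD, to 1.55 for the difference in steps (Elof1 reversed to -0.063), and reversed it to -0.71 in WT FrD against WT FrC, where 9 of the 10 genes changed sign, Slc12a3 excepted: Atp1b1 (-0.50), Gfra1, Stambpl1 (-1.46), Tifa (-0.70), Arl5c (-0.16), Litaf (-1.04), Thbd (-0.72), Uchl1 (-0.39) and Elof1 (-2.18); the shift of all genes is given above. Gfra1 in WT FrE against WT FrD was -4.08 without the low-complexity libraries and -3.89 without WT mouse 7. With each mouse left out, medians ran from 1.07 to 1.38 for mutant against WT FrE, from -1.08 to -0.76 in FrD, from -2.75 to -2.45 for WT FrE against WT FrD, from -0.40 to -0.19 for mutant FrE against mutant FrD and from 2.17 to 2.50 for the difference in steps. With the replicate block for mouse, the medians of the last 3 were -2.73, -0.33 and 2.37, and it changed no call among the 10 genes, with 0 called in each tested step. In mutant FrC the low-complexity libraries leave 2 mice, and in mutant FrB 1, which limits what those fractions can show.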
